A study of Mus musculus with 12 samples.

Results

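The histone genes described here are linker, core and variant histone genes chosen by their symbols, each with a probe set of its own on the array. The spermatid linker histones H1f6 and H1f7 were left out. Members were probe sets with a single gene symbol that follows the naming pattern of H1, H2A, H2B, H3 or H4 genes. Histone genes under other symbols, such as Hils1 and Cenpa, are not members. One probe set stood for each gene, the one with the highest mean log2 value over 12 arrays. This gave 23 genes of 18193 with a probe set of their own, and 17 of them entered the test among 14197 genes. The other 6 lay near the low end of the table and are described by their range.

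Mouse germ cells of 4 groups were measured on Affymetrix arrays with 3 arrays each, and the stated purpose was to compare germ cells taken from animals with those made in vitro. PGC were primordial germ cells from the male genital ridge of BDF1 fetuses at E12.5, and RS were round spermatids from the testis of BDF1 mice at 3 weeks. PGCLC were cells like PGC at day 6 of differentiation in culture, and SLC were cells like spermatids produced in vitro, with neither strain nor cell line given for these 2 groups. All cells were collected by FACS, with no gate named, and no group carried a named allele or transgene. The samples are called biological replicates without a statement that they came from separate animals or cultures, so p-values measure only the spread between these samples.

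Histones package DNA into nucleosomes: H2A, H2B, H3 and H4 form the core and H1 binds the linker. Replication-dependent genes sit in clusters, are transcribed in S phase and end their mRNA in a stem loop in place of a poly(A) tail. Replacement variants such as H2A.Z, H2AX and H3.3 come from polyadenylated mRNA outside S phase as well, and testis variants enter chromatin before protamines replace most histones. The labelling kit starts from poly(A), so the arrays read mainly polyadenylated histone transcripts, and a level here need not follow the stem loop form of the same gene. Probe values are not compared between genes.

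Promoters of 20 of the 23 genes were matched in RefSeq (GRCm38.p6), as 250 bases before to 50 after the start of each gene. The 5 shown belong to genes whose levels are described in detail below, 1 or 2 from each role, written 5′ to 3′ on the gene's strand. H1f2 encodes a linker histone and lies at chr13:23738557-23738856 on the plus strand, H2ac19 a cluster H2A at chr3:96240325-96240624 on the minus strand, and H2bc22 a cluster H2B at chr13:21787238-21787537 on the plus strand. H2ap, a short H2A variant gene, lies at chrX:9846697-9846996 on the plus strand, and H2az2, a gene for H2A.Z, at chr11:6444394-6444693 on the minus strand. Capitals mark CCAAT on either strand, the letters bound by the factor NF-Y.
H1f2: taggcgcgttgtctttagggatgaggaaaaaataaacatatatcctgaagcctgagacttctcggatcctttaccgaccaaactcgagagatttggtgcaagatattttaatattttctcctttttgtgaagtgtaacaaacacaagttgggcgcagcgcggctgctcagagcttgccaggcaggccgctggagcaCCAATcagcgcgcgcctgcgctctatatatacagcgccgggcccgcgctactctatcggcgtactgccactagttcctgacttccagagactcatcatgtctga
H2ac19: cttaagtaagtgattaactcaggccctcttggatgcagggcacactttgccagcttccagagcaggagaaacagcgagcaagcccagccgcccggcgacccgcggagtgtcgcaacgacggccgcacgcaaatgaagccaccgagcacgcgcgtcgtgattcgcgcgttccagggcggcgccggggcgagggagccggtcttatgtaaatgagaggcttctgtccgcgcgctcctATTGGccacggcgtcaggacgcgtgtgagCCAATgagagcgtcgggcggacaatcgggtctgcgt
H2bc22: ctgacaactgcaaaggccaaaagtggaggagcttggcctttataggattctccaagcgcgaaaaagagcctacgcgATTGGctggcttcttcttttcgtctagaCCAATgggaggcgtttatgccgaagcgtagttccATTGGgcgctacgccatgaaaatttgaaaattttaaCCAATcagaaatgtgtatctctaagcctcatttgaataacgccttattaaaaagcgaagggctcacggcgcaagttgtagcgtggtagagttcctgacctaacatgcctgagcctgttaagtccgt
H2ap: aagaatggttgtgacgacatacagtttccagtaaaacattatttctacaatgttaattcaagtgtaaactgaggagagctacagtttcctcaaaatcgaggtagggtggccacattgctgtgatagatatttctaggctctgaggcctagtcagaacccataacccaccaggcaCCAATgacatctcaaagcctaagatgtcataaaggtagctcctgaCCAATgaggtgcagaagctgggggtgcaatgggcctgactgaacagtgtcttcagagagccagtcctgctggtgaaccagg
H2az2: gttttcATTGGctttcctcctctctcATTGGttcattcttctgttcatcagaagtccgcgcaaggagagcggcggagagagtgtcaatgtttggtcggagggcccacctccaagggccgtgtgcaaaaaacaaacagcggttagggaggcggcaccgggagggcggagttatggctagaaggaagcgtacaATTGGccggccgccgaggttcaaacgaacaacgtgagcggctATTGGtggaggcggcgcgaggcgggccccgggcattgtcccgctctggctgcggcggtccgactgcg
The letters CCAAT were found on either strand in 17 of 20 histone promoters (85.0%), against 37.4% of 32851 promoters of the same length. All 6 cluster genes and all 5 replacement variants with a promoter held them, as did 3 of 4 linker genes and 3 of 5 testis variant genes. H2al2a and H2al3 were the testis variants without a match. Other searches gave TATAAA in 6 of 20 promoters against 13.6% of all, the octamer ATTTGCAT in 3 of 20 against 1.74%, and GGGCGG in 7 of 20 against 35.7%. TGACGTCA was in 0 of 20, against 1.79% of all. Both strands were searched for each motif, no motif holds another, and a match is a description of the letters only.

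Array quality and cell markers are given first, since several results stand beside them. The deposited signal had a 2% trimmed mean of 500 on all 12 arrays. Values correlated at 0.986 to 0.988 among PGC arrays, at 0.976 to 0.984 among RS and at 0.984 to 0.987 among SLC, but at 0.914 to 0.976 among PGCLC. The summed signal of 3 germ cell genes (Ddx4, Dazl and Mael) was 3045, 26275 and 14797 on PGCLC arrays 1 to 3, against 29688 to 32667 on PGC arrays. Epithelial keratin and claudin genes summed to 35047, 4033 and 25971 on the same PGCLC arrays, against 674 to 742 on PGC arrays. Round spermatid markers summed to 133033 to 144284 on RS arrays and 104942 to 107568 on SLC arrays, and to at most 369 on any other array. Markers of testis somatic cells summed to 3337 to 3871 on RS arrays and 104875 to 105225 on SLC arrays. In these bulk samples, fewer cells of a type and less RNA per cell cannot be told apart.

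The first comparison asks how histone transcripts differ between fetal germ cells and round spermatids taken from animals, and the second the same step between PGCLC and SLC. Testis variants and 3 cluster genes rose at both steps, while H2ax, H2az2 and H3f3a fell at both. Of 17 tested histone genes, 8 rose and 5 fell from PGC to RS, where 68.6% of all genes were called, 31.5% as a rise and 37.2% as a fall. From PGCLC to SLC, 8 rose and 4 fell, where 56.3% of all genes were called, 29.4% as a rise and 26.9% as a fall. Called here means a limma adjusted p under 0.05 together with at least a 2-fold change. The share of histone genes called was 76.5% and 70.6%. Among these calls are the 4 tested testis variants, which passed the filter only through RS and SLC arrays. The counts in this paragraph therefore describe the 17 genes alone, and shares of all genes are not a like measure. Arrays did not overlap for 15 of 17 genes between PGC and RS, against 85.4% of all genes, and for 14 of 17 between PGCLC and SLC, against 76.1%. With no minimum fold, 8 histone genes were higher in RS than in PGC at an adjusted p under 0.05 and 7 lower, against 37.0% and 44.8% of all genes. In SLC against PGCLC 8 were higher and 6 lower, against 36.9% and 38.4%.

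**Figure D1:**
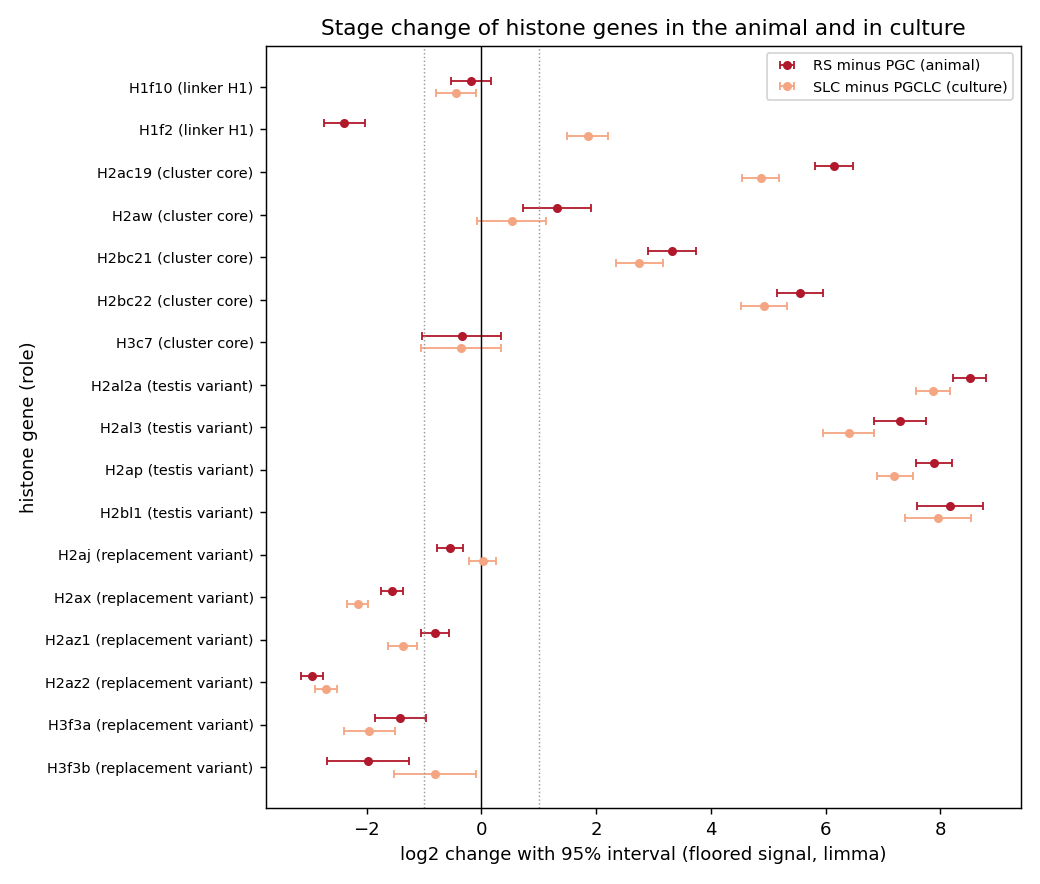
Log2 change of each tested histone gene from PGC to RS and from PGCLC to SLC, with 95% confidence intervals from the limma fit, grouped by role, and dotted lines at 2-fold. Testis variants lie between 6.40 and 8.51 at both steps, and H1f2 lies at -2.39 at the first step and 1.85 at the second.

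Testis variants had the largest rises among the tested histone genes, and all 4 of them rose at both steps. The fifth, H2bfm, was not tested. The 4 passed the filter only through their RS and SLC arrays. The direction of their change therefore followed from the filter and is not a separate result. H2al2a, a gene for a short H2A that enters nucleosomes as transition proteins are loaded, gave 2.79, 5.84 and 3.17 on the PGC arrays and 17.2, 7.61 and 3.83 on the PGCLC arrays. In RS it gave 9181, 12672 and 12145, and in SLC 6782, 7508 and 7287. All PGC and PGCLC values lay under the floor of 30.7, so the groups did not overlap and the fold is a lower bound. The floored arrays show no spread, and this enters the SE and p-values. H2al2a was at least 365-fold higher in RS than in PGC (log2 change 8.51, SE 0.131, adjusted p = 6.35e-14) and at least 234-fold higher in SLC than in PGCLC (adjusted p = 1.69e-13).

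H2bl1, the gene of a short testis H2B variant, gave 7, 4.94 and 70.5 in PGC and 6.33, 9.73 and 11.3 in PGCLC. Its RS arrays read 10822, 12288 and 11867, and its SLC arrays 6773, 8574 and 7756. PGC array 3 stood above the floor and far below every RS array. The rise was at least 287-fold from PGC to RS (adjusted p = 3.85e-11) and at least 249-fold from PGCLC to SLC (adjusted p = 8.11e-11). H2ap, an X-linked short H2A gene, gave 2.48, 23.6 and 2.76 in PGC, 13.2, 28.8 and 1.18 in PGCLC, 5916, 8004 and 8199 in RS, and 4107, 4775 and 4743 in SLC. It rose at least 237-fold from PGC to RS and at least 147-fold from PGCLC to SLC. A second probe set of H2ap read 1.1 to 12.6 on all arrays, so its probe sets disagree. H2al3, a related gene on the same chromosome, gave 16.7, 28.6 and 33.1 in PGC, 27, 52.3 and 3.1 in PGCLC, 4294, 5462 and 5276 in RS, and 2776, 3092 and 3476 in SLC. The rise was at least 158-fold and at least 84.5-fold at these steps. The order of folds taken against the floor is not settled.

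Cluster core genes with a probe set of their own rose or were not called, and none fell. H2ac19, an H2A gene of the smaller cluster on chromosome 3, gave 177, 181 and 170 in PGC and 240, 374 and 254 in PGCLC. In RS it gave 11356, 13674 and 12422, and in SLC 7721, 8538 and 8600. Spermatid groups and fetal groups did not overlap. It rose 70.9-fold from PGC to RS (log2 change 6.15, SE 0.149, adjusted p = 3.29e-12) and 29.2-fold from PGCLC to SLC (adjusted p = 4.06e-11). A second probe set of H2ac19 gave the same order of groups, with 150 to 244 in PGC and 8553 to 9238 in RS. H2ac19 has a neighbouring near-identical copy, H2ac18, and reads from both could enter its probe sets. A probe set that carries both symbols was not fitted. It gave 48.9 to 121 in PGC, 21.4 to 55.9 in PGCLC, 106 to 129.7 in RS and 73.3 to 109 in SLC. Its RS mean was 1.54 times its PGC mean, so a rise of this size was not seen on every probe set of these symbols.

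H2bc22, a cluster H2B gene whose promoter holds 4 CCAAT matches, gave 144, 92.7 and 81.8 in PGC and 116, 114 and 108 in PGCLC. Its RS arrays read 4361, 5281 and 4974, and its SLC arrays 3177, 3476 and 3580. It rose 47.1-fold and 30.3-fold at the 2 steps (adjusted p = 4.44e-11 and 2.27e-10). Its only probe set of its own is of a type that can be shared between transcripts. A probe set of 11 symbols that include H2bc22 had an RS mean 7.68 times its PGC mean. H2bc21, an H2B gene also known from olfactory neurons, gave 108, 133 and 97.6 in PGC and 79.1, 119 and 112 in PGCLC. It read 1174, 1035 and 1157 in RS and 679, 611 and 773 in SLC, with no overlap. The rise was 10.02-fold from PGC to RS (adjusted p = 6.43e-09) and 6.72-fold from PGCLC to SLC (adjusted p = 6.52e-08). A second H2bc21 probe set went from 44.1 to 54.7 in PGC to 433 to 501 in RS.

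H2aw, another cluster H2A gene, gave 152, 134 and 64.7 in PGC and 284, 240 and 299 in RS. It rose 2.50-fold (adjusted p = 0.000695), and without PGC array 3 the log2 change was 0.94 and the call was lost. From PGCLC to SLC the log2 change of H2aw was 0.53 (adjusted p = 0.0973), and its second probe set gave 2.02, which was called. H3c7, a cluster H3 gene, stayed between 46.9 and 140 on all arrays, with a log2 change of -0.34 from PGC to RS (adjusted p = 0.33). The groups of H3c7 overlapped at both steps.

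Of the 6 replacement variants, 0 rose at either step. From PGC to RS 4 fell, where 37.2% of all genes fell, and from PGCLC to SLC 4 fell, where 26.9% of all genes fell. They include H3.3 genes, whose probe sets disagree as described below. H2az2, one of the genes for H2A.Z, the variant found around active promoters, gave 10879, 10593 and 11678 in PGC and 9427, 10154 and 9142 in PGCLC. In RS it gave 1361, 1523 and 1400, and in SLC 1293, 1546 and 1568. The spermatid arrays all lay below the fetal ones. H2az2 fell 7.74-fold from PGC to RS (log2 change -2.95, SE 0.088, adjusted p = 1.94e-11) and 6.54-fold from PGCLC to SLC (adjusted p = 6.99e-11). Its second probe set went from 584 to 676 in PGC to 31 to 57.7 in RS.

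H2az1, the other gene for H2A.Z, gave 8012, 7775 and 8413 in PGC and 4774, 4499 and 4551 in RS. The difference of -0.81 on the log2 scale had an adjusted p of 3.11e-05 and missed the 2-fold minimum, which it passed under quantile normalization at -1.05. In PGCLC it gave 12506, 8550 and 10200, and in SLC 3677, 4222 and 4065, a fall of 2.59-fold (adjusted p = 3.74e-07). Probe sets shared by H2az1 and Gm8203 were not fitted and gave smaller falls. Their PGCLC means were 1.69 and 2.06 times their SLC means, and their PGC means 1.27 and 1.38 times their RS means. H2ax, the variant phosphorylated at DNA breaks and on the sex chromosomes in meiosis, gave 4284, 3996 and 3866 in PGC and 1536, 1264 and 1330 in RS. Its values were 4616, 4944 and 4685 in PGCLC and 1084, 1040 and 1078 in SLC. It fell 2.95-fold and 4.45-fold at the 2 steps (adjusted p = 4.6e-09 and 4.06e-10). H2aj, a solitary H2A gene, lay between 904 and 1510 on all arrays and was not called at either step.

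H3f3a and H3f3b both encode H3.3, the H3 variant deposited outside replication. H3f3a gave 365, 347 and 441 in PGC and 160, 176 and 106 in RS, and fell 2.66-fold (adjusted p = 3.71e-05), with the call lost under quantile normalization at a log2 change of -0.98. It gave 372, 460 and 399 in PGCLC and 109, 99.6 and 108 in SLC, a fall of 3.87-fold (adjusted p = 2.83e-06). H3f3b gave 307, 366 and 290 in PGC and 71.4, 62 and 121 in RS, and fell 3.94-fold (adjusted p = 0.000113). From PGCLC, at 665, 276 and 550, to SLC, at 272, 236 and 292, the groups overlapped and the log2 change was -0.81 (adjusted p = 0.0387), short of the 2-fold minimum. PGCLC array 2 was the low one of its group, and without it the change was -1.19 and H3f3b was called.

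The H3.3 values depend on the probe set. Another 5 probe sets are shared by H3f3a, H3f3b and 4 other symbols and were not in the fit, and all read at 1633 or more on every array. On the first of them the PGC arrays gave 11091 to 11734 and the RS arrays 1633 to 1842, with 7952 to 8629 in SLC. On another the RS mean was 1.41 times the PGC mean, with 8547 to 10005 in PGC, 12712 to 13734 in RS and 10037 to 10086 in SLC. The next gave 10298 to 10591, 14774 to 15995 and 11010.2 to 12118 in these groups. These 2 probe sets were higher in RS than in PGC and lower in SLC than in RS. The fourth gave 15891 to 16312, 16087 to 16647 and 13568 to 14429, and the fifth 18178 to 18490, 10410.1 to 10581 and 12842 to 13362. A fall of H3.3 mRNA is not shared by all probe sets that carry these symbols.

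Linker genes divided. H1f2 encodes H1.2, a somatic linker histone of dividing and resting cells, and its PGC arrays gave 389, 420 and 472 against 79.9, 83.6 and 80.7 in RS. It fell 5.23-fold (log2 change -2.39, SE 0.165, adjusted p = 4.32e-08). The PGCLC arrays gave 646, 1078 and 846 and the SLC arrays 3062, 2992 and 3020, a rise of 3.61-fold (adjusted p = 7.42e-07). Testis somatic markers summed to 19433 to 22859 on these PGCLC arrays and 104875 to 105225 on the SLC arrays, and their part in this rise was not tested. H1f10, a solitary linker gene with a polyadenylated mRNA, gave 565, 556 and 594 in PGC, 403, 536 and 438 in PGCLC, 567, 566 and 400 in RS, and 326, 346 and 338 in SLC. It was not called at either step, with log2 changes of -0.18 and -0.44. Beside all changes from PGC to RS stands the 3' to 5' log2 ratio of Gapdh, a sign of RNA quality, at -0.43 to -0.36 on PGC arrays and -0.01 to 0.20 on RS arrays, whose part was not tested. The same ratio of Actb did not separate them, at 0.47 to 0.70 on PGC arrays and 0.46 to 0.49 on RS arrays.

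Whether the 2 steps differ was tested as an interaction, the PGCLC to SLC change less the PGC to RS change. Of the 17 genes, 1 was higher and 1 lower, where 31.7% of all genes were called, 20.7% higher and 11.1% lower. With no minimum fold 2 were higher and 6 lower, against 26.2% and 21.8%. H1f2 differed by 4.24 (SE 0.234, adjusted p = 1.02e-07) and H2ac19 by -1.28 (SE 0.211, adjusted p = 0.000529). The smaller H2ac19 difference was lost under quantile normalization, at -0.74, and without probe sets that can be shared between transcripts, at -0.85. Among the other 15 tested genes the interaction ranged from -0.90 for H2al3 to 1.17 for H3f3b, and neither was called. Without PGCLC array 1, both were, at -1.03 and 1.43, which made 4 calls in all. H2al3 was also called without PGCLC array 3 or RS array 1, and H3f3b without RS array 3. H2aw, at -0.79, was called without PGC array 1, at -1.03.

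SLC against RS asks how spermatid-like cells made in vitro differ from round spermatids. The RS arrays also enter the PGC to RS step. H1f2 and H3f3b rose and 0 of 17 fell, where 26.8% of all genes were called, 23.5% as a rise and 3.32% as a fall. H1f2, at 79.9 to 83.6 in RS and 2992 to 3062 in SLC, was 37.2-fold higher (log2 change 5.22, SE 0.165, adjusted p = 3.32e-10). A second H1f2 probe set gave 31.3, 44 and 44.7 in RS and 1826, 1747 and 1661 in SLC. Its other probe set was low, at 20.3 to 146, on all arrays. H3f3b, at 62 to 121 in RS and 236 to 292 in SLC, was 3.27-fold higher (adjusted p = 0.000753). Of the 5 probe sets that H3f3b shares with H3f3a, 2 read higher in SLC than in RS and 3 lower, without overlap, as the values above show.

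The rise of H1f2 stood beside testis somatic markers. Of 18 such genes tested, 17 rose from RS to SLC with a median log2 change of 3.93, where 23.5% of all genes rose. Cyp11a1, which encodes a steroidogenic enzyme, was at the floor on all RS arrays. The gene not called, Cyp17a1, encodes another such enzyme and had means of 109 in RS and 33.9 in SLC. The highest SLC means were those of Col1a2 (21947), Col3a1 (20402), Acta2 (15545) and Vim (12326). Sox9, Wt1 and Gata4 had means of 192, 530 and 299. Of 13 fetal gonad somatic genes, 9 rose, with sums of 1713 to 1811 in RS and 35997 to 37534 in SLC. Wt1, Gata4, Sox9, Pdgfra, Col1a1 and Col3a1 are in both lists and rose, so the lists are not separate evidence. Col3a1 and Col1a1 had the highest SLC means of the fetal gonad list, 20402 and 8345. Its genes not called were Dlk1, Wnt6, Lhx9 and Emx2. The part of these somatic markers in the H1f2 and H3f3b values was not tested. A probe set shared by 3 cluster H2B genes had the same order of groups as H1f2: 239 to 273 in PGC, 604 to 714 in PGCLC, 74.1 to 112 in RS and 2009 to 2242 in SLC.

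**Figure D2:**
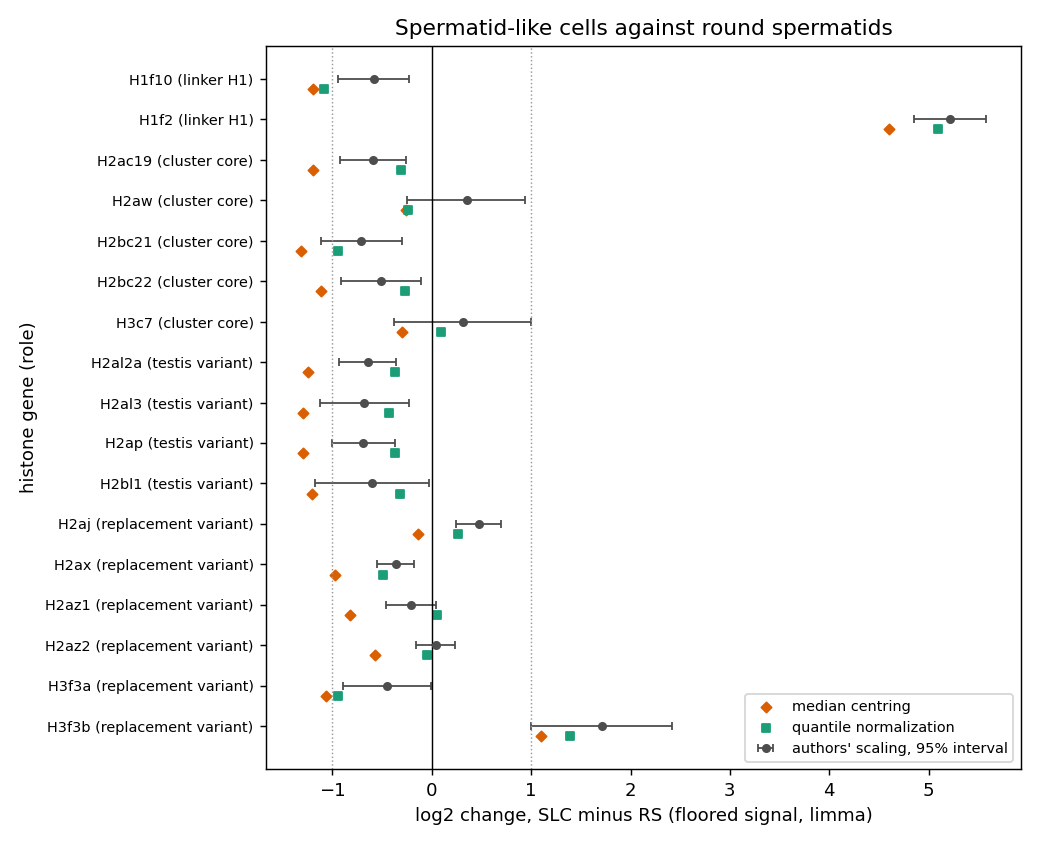
Log2 change of each tested histone gene from RS to SLC with 95% confidence intervals from limma under the authors' scaling (circles), beside the same change with median centring (diamonds) and quantile normalization (squares). Dotted lines mark 2-fold. H1f2 at 5.22 and H3f3b at 1.71 were called as higher, and the testis variants lie between -0.69 and -0.60 under the authors' scaling.

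Arrays of SLC and RS did not overlap for 14 of 17 genes, against 74.6% of all genes. All 4 testis variants had lower means in SLC, from -0.69 for H2ap to -0.60 for H2bl1, none past 2-fold. With no minimum fold, 8 genes were lower at an adjusted p under 0.05, against 31.5% of all genes, and 3 were higher, against 31.6%. At an unadjusted p under 0.05 in limma, 10 were lower and 3 higher. The share of all genes at this unadjusted level was not counted, here or below, so such counts have no background beside them. The 8 were H1f10 (called as a fall under quantile normalization, at -1.09), H2ac19, H2al2a, H2al3, H2ap, H2ax, H2bc21 and H2bc22. H2ac19 had a log2 change of -0.59 (adjusted p = 0.00498), H2bc21 one of -0.71 (adjusted p = 0.00644) and H2al2a one of -0.64 (adjusted p = 0.00126). These sizes move with the scaling: with each array centred on its median, the median log2 change over all genes went from -0.15 to -0.76, and 2 histone genes rose and 9 fell. The share of higher calls among all genes was 87.6% with the deposited scaling, 29.4% with median centring and 54.3% with quantile normalization. The median log2 change was -0.45 over the 17 histone genes and -0.15 over all genes tested. The Gapdh ratio was -0.01 to 0.20 on RS arrays and -0.56 to -0.43 on SLC arrays, and its part in these values was not tested. The Actb ratio overlapped, at 0.46 to 0.49 on RS arrays and 0.33 to 0.60 on SLC arrays.

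PGCLC against PGC asks how germ cells made in culture differ from fetal ones. H2aw was the only histone gene called, as a rise, where 11.9% of all genes were called, 10.3% as a rise and 1.60% as a fall. H2aw gave 152, 134 and 64.7 in PGC and 233, 266 and 228 in PGCLC. PGC array 3 was the low one, and the groups did not overlap. The rise was 2.21-fold (log2 change 1.14, SE 0.271, adjusted p = 0.0115). It was lost without PGC array 3 (0.76), with median centring (0.90), quantile normalization (0.83) or the mean of probe sets (0.52), and a second H2aw probe set gave -0.10.

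H1f2 came next, at 389 to 472 in PGC and 646 to 1078 in PGCLC, with a log2 change of 0.98 (SE 0.165, adjusted p = 0.00294) just short of 2-fold. It was called without PGC array 3, at 1.05, or without PGCLC array 1, at 1.17, where the count of calls became 2. Of 18 testis somatic genes tested, 6 rose from PGC to PGCLC, among them Vim by 1.72, Col1a1 by 1.54 and Clu by 1.73 on the log2 scale, and 0 fell. Their sum was 8090 to 9297 on PGC arrays and 19433 to 22859 on PGCLC arrays, and their part in the H1f2 value was not tested. At an unadjusted p under 0.05 in limma, 7 of the 18 were higher and 0 lower. H2ac19 changed by 0.69 (adjusted p = 0.00792) and H2az1 by 0.35 (adjusted p = 0.0378). With no minimum fold, those 3 and H2aw were higher, 4 of 17 against 16.7% of all genes, and 0 were lower against 13.5%. Arrays did not overlap for 8 of 17 genes, against 41.2% of all genes. At an unadjusted p under 0.05 in limma, 5 were higher and 1 lower. Testis variants lay at or near the floor on both sides and have no fold.

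The PGCLC arrays differed among themselves. H3f3b stood 1.06, -0.21 and 0.78 above the PGC mean on arrays 1 to 3 on the log2 scale, and H2az1 stood 0.63, 0.08 and 0.34 above it. H2ac19 went the other way round, with 0.45, 1.09 and 0.53, as did H1f2 with 0.60, 1.34 and 0.99. PGCLC array 2 was thus the highest for H1f2 and H2ac19 and the lowest for H3f3b and H2az1. Of the 3 PGCLC arrays it had the highest germ cell marker sum, 26275, and the lowest epithelial sum, 4033. Its sums of other markers were the highest as well: fetal gonad somatic genes summed to 4507, 12372 and 7288 on arrays 1 to 3, blood and endothelial genes to 4261, 17435 and 10793, and testis somatic genes to 19433, 22859 and 20042. The fetal gonad and testis somatic lists share genes, and the part of these markers in the histone values was not tested.

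**Figure D3:**
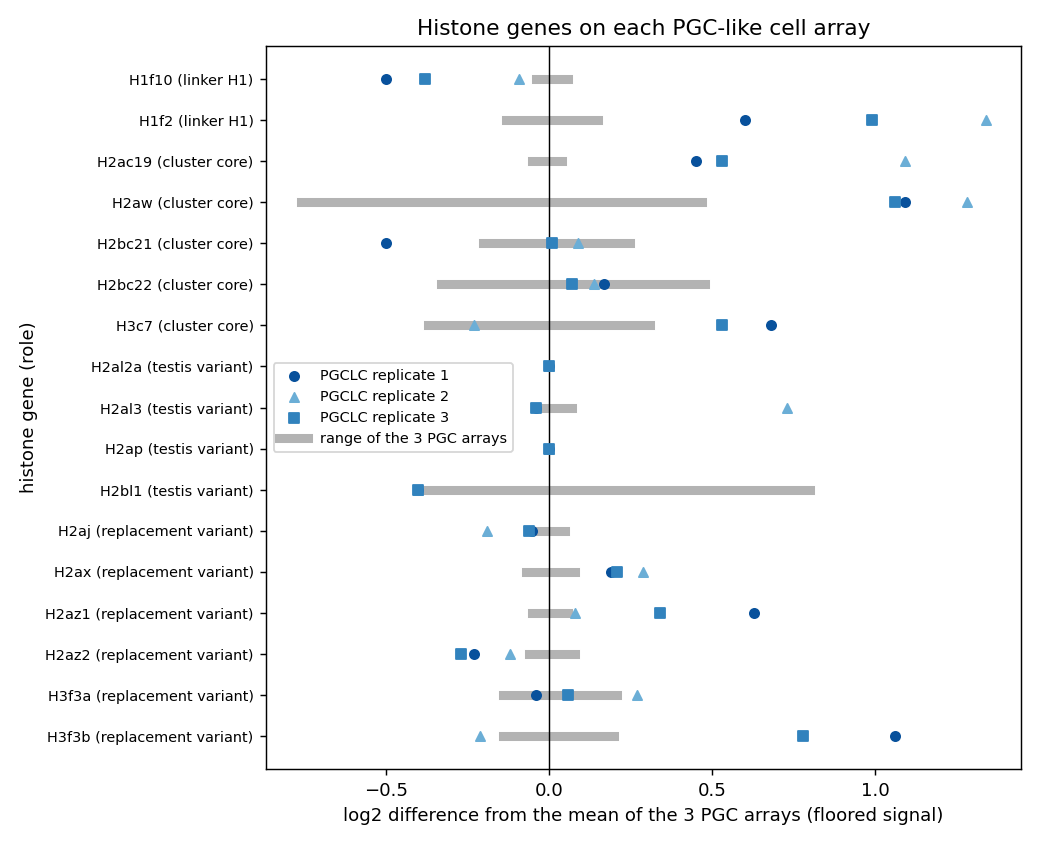
Log2 difference of each PGCLC array from the PGC mean for each tested histone gene on floored signal, with grey bars for the range of the 3 PGC arrays. Array 2 of PGCLC is lowest for H3f3b at -0.21 and highest for H1f2 at 1.34.

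Most cluster histones are read by probe sets that carry several symbols. The array holds 27 histone probe sets of this kind, of which 21 passed the filter on low values. Not all of the 27 belong to cluster genes, since some carry H3f3a and H3f3b, H2az1 with Gm8203, or H2al1 genes. Another joins H2aw to Trim17. The 27 were not fitted, and each stands for all the symbols it carries. A probe set of 10 cluster H2A genes gave 18786 to 20783 in PGC, 16912 to 19164 in PGCLC, 3002 to 4225 in RS and 2895 to 3253 in SLC. From PGC to RS and from PGCLC to SLC its direction was opposite to that of H2ac19. A probe set of 11 H2B genes gave 1062 to 1240.1 in PGC and 8417 to 9528 in RS, with 6478 to 7396 in SLC. H4 probe sets of 13 genes disagreed among themselves. The highest in RS went from 2.26 to 31 in PGC to 3328 to 3899 in RS, another from 493 to 587 to 1952 to 2709, and the next from 138 to 169 to 49 to 83.7. A probe set of 11 H2al1 genes, close relatives of H2al2a, went from 31.2 to 40.3 in PGC to 6951 to 9974 in RS and 5085 to 5843 in SLC. H3 probe sets disagreed too. One of 12 genes stayed between 522 and 1094 on all arrays. One of 8 genes went from 2.99 to 17.3 in PGC to 244 to 325 in RS, with 213 to 231 in SLC, and another of the same 8 from 50.5 to 66.4 to 150.2 to 198, with 290.3 to 346 in SLC.

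The 6 untested genes were low everywhere. H1f8, the oocyte linker histone gene, gave 1.37 to 42.9, H2bc18 5.85 to 68, and H2bfm 1.85 to 64.6 over the 12 arrays. H3c4 gave 6.11 to 113 and H3c11 8.38 to 93.1, and H1f4 1.21 to 98.3. Low values on these probe sets do not speak for the stem loop transcripts. The symbol rule found no probe set of its own for H1f0, H2ac1, H2bc1, the macroH2A genes or single H4 genes. A gene listed under a symbol outside the naming pattern was not looked up, which matters for the macroH2A genes.

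Other genes of histone supply were read from lists of the machinery that processes histone mRNA, carries histones and runs S phase. Beside their counts stand the shares of all genes called, 31.5% as a rise and 37.2% as a fall from PGC to RS, and 29.4% and 26.9% from PGCLC to SLC. In histone mRNA processing, 3 of 16 tested genes rose and 8 fell from PGC to RS, with a median log2 change of -1.47 against -0.22 over all genes. From PGCLC to SLC 1 rose and 8 fell, with a median of -1.07 against -0.07. Slbp, which binds the stem loop of histone mRNA, fell 11.1-fold from PGC to RS (adjusted p = 3.75e-10) and 6.37-fold from PGCLC to SLC. Npat, the activator of histone gene transcription, fell 4.62-fold and 3.40-fold. Coil, a Cajal body gene, rose 4.73-fold and 3.68-fold. Slbp, Npat and Coil at these steps were chosen after their values were seen. Of the 16 genes, 0 were called in SLC against RS, where 26.8% of all genes were called. There limma gave 2 higher and 7 lower at an unadjusted p under 0.05. In PGCLC against PGC 0 were called, where 11.9% of all genes were called, with 0 higher and 9 lower at that unadjusted level. The largest changes there were Ncbp1 at -0.63 and Upf1 at -0.57 in PGCLC against PGC, and Eri1 at 0.89 and Coil at -0.72 in SLC against RS.

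Histone chaperone and exchange genes counted 5 rises and 19 falls among 32 from PGC to RS, with a median of -1.16, where 31.5% of all genes rose and 37.2% fell. From PGCLC to SLC they counted 3 rises and 19 falls, with a median of -1.17, where 29.4% of all genes rose and 26.9% fell. Anp32e, which removes H2A.Z from nucleosomes, fell 26.6-fold from PGC to RS (adjusted p = 7.4e-11), and Hira, of the H3.3 chaperone complex, fell 3.04-fold. Nasp, a carrier of H3, H4 and linker histones, rose 2.23-fold, and these 3 were also chosen after their values were seen. Genes of H3.3 deposition did not move together at this step. Atrx fell 53.6-fold, Daxx rose 2.33-fold, and Ubn1, Ubn2 and Cabin1 were not called. The list also holds Cenpa, itself a histone gene, which fell 30.1-fold. These genes too were named after their values were seen. From RS to SLC 4 rose and 0 fell, where 23.5% of all genes rose and 3.32% fell, and 7 were higher and 15 lower at an unadjusted p under 0.05 in limma. The 4 were Atrx, which deposits H3.3 with Daxx, at 3.47 (adjusted p = 2.55e-08), Nucks1 at 2.87, Rbbp7 at 2.24 and Anp32e at 1.09 on the log2 scale. From PGC to PGCLC 1 rose and 0 fell, where 10.3% of all genes rose and 1.60% fell, and 1 was higher and 12 lower at that unadjusted level. Nucks1 rose by 1.04 (adjusted p = 0.00527), and Chd5, a remodeller of spermatids, differed by -0.98 (adjusted p = 0.204).

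S phase genes had the lowest medians of these lists. From PGC to RS 0 of 24 rose and 21 fell, with a median of -2.42, where 31.5% of all genes rose and 37.2% fell. From PGCLC to SLC 0 rose and 23 fell, with a median of -2.56, where 29.4% of all genes rose and 26.9% fell. At an unadjusted p under 0.05 in limma 0 were higher at either step, and 23 and 24 were lower. Cdt1, a replication licensing gene, fell 30.9-fold from PGC to RS (adjusted p = 4.68e-11), and Rpa2, of the single-strand DNA binding complex, fell 21.7-fold. Of the 24, 0 were called in PGCLC against PGC, where 11.9% of all genes were called. There 3 were higher and 8 lower at an unadjusted p under 0.05 in limma, and Rpa2 at -0.99 and Gins2 at 0.88 had the largest differences. In SLC against RS 0 were called, where 26.8% of all genes were called. Here 6 were higher and 12 lower at that unadjusted level, with Fen1 at -0.94 and Cdt1 at 0.92. The spermatid genes that replace histones, with transition proteins, protamines, H1f6 and H1f7, counted 8 rises among 8 at each step. Of all genes, 31.5% and 29.4% rose at these steps. Each of the 8 passed the filter only through RS and SLC arrays, so this direction followed from the filter. In SLC against RS 0 of them were called, where 26.8% of all genes were called. There 0 were higher and 5 lower at an unadjusted p under 0.05 in limma. H1f7 was at least 377-fold higher in RS than in PGC and Tnp1 at least 1011-fold, both named after their values were seen.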

How the data were processed

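RNA of 12 samples in 4 groups was labelled with a 3' IVT kit and read on Affymetrix arrays. The authors deposited 1 intensity per probe set on a linear scale, and MAS5, without a version, is the tool named in the submitters' processing notes. Each array's 2% trimmed mean was 500, so the deposited intensities had been scaled, and they were not scaled again. A floor at the table's 25th percentile, 30.7, was applied before log2. Probe sets with 1 symbol and values above the table median, 92, on at least 3 arrays were kept, and the probe set with the highest mean log2 value stood for a gene. A member that passed only through the group where it is high had to differ, so the counts over the 17 tested genes describe those genes alone.

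One model of 4 group means was fitted to the 12 arrays with limma 3.58.1 in R 4.3.3 (lmFit, eBayes with trend), with p adjusted by Benjamini and Hochberg over 14197 genes. The fit was tested on simulated data. Folds come from mean log2 values and are written "at least" where the lower group had arrays at the floor. The number of arrays limits the precision. Symbols of all 23 genes matched RefSeq by Entrez identifier. H2ap and H2bfm were placed with the testis variants. Named genes were every landmark, the 5 largest rises and falls called in each comparison, and the 2 largest changes of each list in PGCLC against PGC and SLC against RS; others are marked. Genes H2ax, H2bc21 and H3c7 had no promoter in the table used. Members, lists and rules were chosen with earlier results of these data known. The 24 alternatives covered the floor, scaling, filter, probe sets, arrays, variance model, minimum fold, replicate number and each array left out.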

Additional observations from a re-analysis of the deposited data

Results flagged for a closer look

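H1f2 differed between the culture step and the animal step by a test of the difference itself, an interaction of 4.24 on the log2 scale (adjusted p = 1.02e-07 in limma). It rose from PGCLC to SLC and fell from PGC to RS. H2ac19 differed as well, with an interaction of -1.28 (adjusted p = 0.000529 in limma), since its rise was larger from PGC to RS, 6.15, than from PGCLC to SLC, 4.87. The H2ac19 difference was not called under quantile normalization or without probe sets that can be shared between transcripts.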

How the results depend on the processing

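The counts of histone genes called were 1 for PGCLC against PGC, 2 for SLC against RS, 13 for RS against PGC, 12 for SLC against PGCLC and 2 for the interaction. With median centring they were 0, 11 and 7 for PGCLC against PGC, SLC against RS and the interaction. With no minimum fold these 3 counts were 4, 11 and 8. Without probe sets ending in _x_at, _s_at or _a_at they were 0, 1 and 0. That setting left 14 genes and did not test H1f2, H2az1 or H2bc22. PGCLC against PGC had 0 calls with quantile normalization, with the mean of probe sets and with only the arrays compared, where H2aw had an adjusted p of 0.112. Leaving out 1 array gave 1 to 2 calls for PGCLC against PGC, 2 to 2 for SLC against RS, 12 to 13 for RS against PGC, 12 to 13 for SLC against PGCLC and 2 to 4 for the interaction. The replicate numbers did not pair arrays (correlations of deviations -0.02 to 0.13), and with the replicate number as a block the counts were 1, 2, 13, 12 and 3, where H3f3b was added to the interaction. Among values of called changes under alternatives, 701 kept direction and call, 9 lost the call and 1, H2aw in PGCLC against PGC, turned, to -0.10 on its other probe set. The 701 include values with no minimum fold, where a call could not be lost. They also include the testis variants, whose direction from PGC to RS and from PGCLC to SLC followed from the filter.

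The other 37 turns were of changes that were not called. In PGCLC against PGC, H2aj turned to 0.15 with the mean of probe sets. H2al3 turned to -0.16 with the floor at the 10th percentile, -0.12 with log2(value + 16), -0.02 with median centring and -0.04 without PGCLC array 2, with 0.35 the highest value when an array was left out. With median centring H2ax was -0.01, H2bc22 -0.12 and H3f3a -0.15, and with quantile normalization H2bc22 was -0.16 and H3f3a -0.08. With an array left out H2bc21 ranged from -0.25 to 0.05, the latter without PGCLC array 1, and H2bc22 from -0.04 without PGC array 3 to 0.37. In SLC against RS, median centring turned H2aj to -0.14, H2aw to -0.26, H2az2 to -0.57 and H3c7 to -0.30, and quantile normalization turned H2aw to -0.24, H2az1 to 0.05 and H2az2 to -0.05. The mean of probe sets turned H2aj to -0.10 and H2aw to -0.07, the other H2aw probe set gave -0.50, and H2az2 was -0.01 without SLC array 3. H1f10 turned to 0.25 in RS against PGC with quantile normalization. In SLC against PGCLC, H2aj was -0.18 with median centring, -0.33 with the mean of probe sets, -0.02 without PGCLC array 2 and -0.07 without SLC array 2. In the interaction, H2aj was -0.26 with the mean of probe sets, H2az2 -0.12 with median centring, and H2bl1 0.19 with the lower floor and 0.12 with quantile normalization. H3c7 was 0.08 with quantile normalization and, with an array left out, from -0.29 to 0.17, with 0.17 without PGC array 1, 0.13 without RS array 1, 0.12 without RS array 3 and 0.06 without SLC array 2. The cause of these turns was not tested. Values near the floor give bounds only, and 3 arrays per group limit what can be called.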
